A study of Rattus norvegicus with 12 samples.

Results

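The cytosolic ribosomal protein genes were followed in calvarial bone (skull vault) of the rat with 12 Agilent arrays. Members were the gene names of the array that match the systematic names of these genes (Rpl or Rps with a number and an optional a, Rplp0 to Rplp2, and Rpsa). The rule uses names alone and no measured value. It found 76 genes, 43 of the large subunit, 30 of the small subunit and 3 of the stalk, among 34912 gene names. All 76 were measured well above background on all 12 arrays, and 22718 gene names in all were tested.

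Bone was collected 72 h after surgery from rats aged 10 weeks. In the laser group an Er:YAG laser, whose infrared light removes mineralised tissue, had cut a defect of 8 by 3 mm at 20 Hz and 127 mJ per pulse. In the bur group a rotating bur had cut a defect of the same size. Control bone was not ablated. The labels call it non-treated, while the treatment protocol says that its periosteum was taken off. Each group had 4 arrays, each made from 200 ng of total RNA, and their number limits the precision. The labels name no strain, sex or allele and leave it unstated whether each sample was a separate animal. The p-values therefore cover the scatter of these samples alone, and that scatter may be technical.

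Each cytosolic ribosome is built from a small subunit, which reads the messenger RNA, and a large subunit, which joins amino acids into a chain. A stalk of acidic P proteins on the large subunit recruits the elongation and release factors. The genes are among the most strongly transcribed of any cell, and their mRNAs typically begin with a C followed by an unbroken stretch of pyrimidines, the 5′ terminal oligopyrimidine (TOP) motif, through which growth signalling by mTOR controls their translation. Bone cells that lay down collagen, marrow cells that divide and cells that enter a wound all need ribosomes.

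The start sites of a few members are shown because of this motif. Most of those printed carry it, whereas most of the member sites counted below do not. Each window runs from 15 bases before the annotated start to 15 bases from it on the transcribed strand (RefSeq, assembly GRCr8), and capitals mark an unbroken stretch of C and T that opens with a C at the start base. The windows are Rpl37a, a large subunit gene, at chr9:81748076-81748105 (plus strand), Rpl31 at chr9:49143096-49143125 (plus), Rpl10 at chrX:157205835-157205864 (plus), Rpl28 at chr1:78083518-78083547 (minus), the stalk base gene Rplp0 at chr12:46718376-46718405 (minus), and, with no such stretch, Rpl41 at chr7:1563483-1563512 (minus).
Rpl37a: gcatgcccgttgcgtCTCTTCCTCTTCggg
Rpl31: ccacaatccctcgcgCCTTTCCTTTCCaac
Rpl10: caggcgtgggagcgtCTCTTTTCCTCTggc
Rpl28: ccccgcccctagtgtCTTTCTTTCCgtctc
Rplp0: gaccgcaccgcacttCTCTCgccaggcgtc
Rpl41: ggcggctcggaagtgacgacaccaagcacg
The RefSeq table held 62 start sites for 61 of the 76 members. A C at the start base that opens a stretch of at least 5 pyrimidines, searched on the transcribed strand at that base only, was found at 24 of the 62 member sites (38.7%) and at 881 of all 33469 sites in the table (2.63%). The match describes these letters at the annotated base, and a start annotated a few bases away is not counted. The 24 members with the stretch had a median log2 difference from control of -0.00058 with the laser and 0.06 with the bur, and the 37 with a listed site and no stretch had -0.05 and -0.01.

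Values are log2 of the spot signal minus the array's 75th percentile, so 0 marks the signal that 75% of spots do not exceed. The brightest probe stood for each gene. Ribosomal protein genes filled the top of the array: 38 of the 76 were among the 100 brightest genes, 66 were at or above the 99th percentile and 74 at or above the 95th. Probes differ in how strongly they bind, so these ranks describe signal and not transcript number. The median member stood at 6.26 on the log2 scale.

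Rpl41, which encodes a very short basic peptide of the large subunit, had the highest signal of all 22718 genes, at 8.45. It read 8.45, 8.52, 8.47 and 8.44 in control, 8.37, 8.20, 8.44 and 8.70 with the bur, and 8.32, 8.18, 8.67 and 8.66 with the laser. The groups overlapped throughout, and the control arrays lay closest together. Rplp0, the stalk base that anchors the other P proteins, ranked 10th at 7.63, and Rplp1, which pairs with Rplp2 on the stalk, ranked 12th at 7.53. No member spot was saturated: the highest raw member signal was 357076.5, against a saturation value of at least 778080. The lowest signals belonged to Rpl27 (1.95), Rpl28 (2.45) and Rps2 (4.11).

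**Figure D1:**
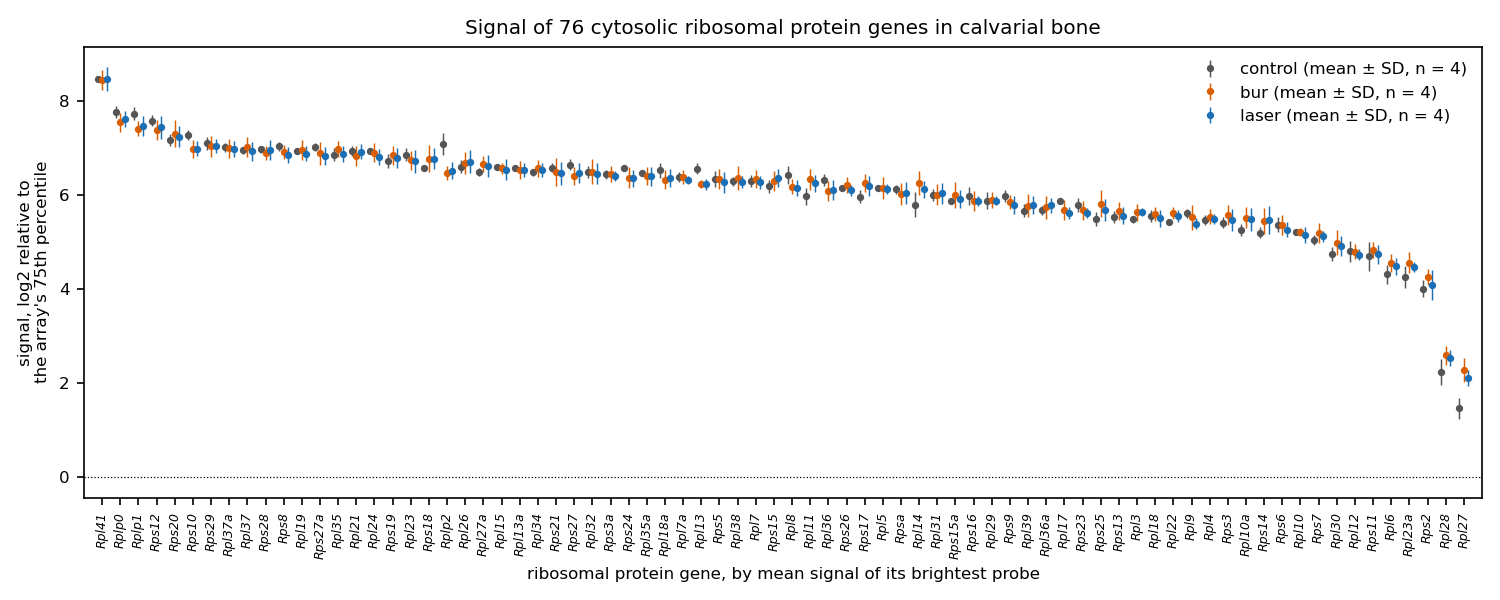
Signal of each of the 76 genes (log2 relative to the array's 75th percentile; mean ± SD of 4 arrays per group) in order of mean signal over 12 arrays. The 3 groups lie on top of each other along nearly the whole row, from 8.45 for Rpl41 to 1.95 for Rpl27.

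The family differed little between ablated and control bone, where a large share of all other genes differed. With the laser, 1 member rose and 1 fell, which is 2.63% of the 76, against 22.3% of all genes tested (2103 higher, 9.26%, and 2958 lower, 13%) and 24% of the brightest 5% of genes (limma, adjusted p under 0.05). With the bur, again 1 member rose and 1 fell (2.63%), against 26.2% of all genes (2270 higher, 9.99%, and 3678 lower, 16.2%) and 28.3% of the brightest 5%. The median member difference was -0.03 with the laser and 0.01 with the bur. The median size of the difference, whatever its sign, was 0.11 and 0.12 among members and 0.38 and 0.40 over all genes. Among the brightest 5% of genes, where most members lie, it was 0.24 and 0.27. The share over all genes moved with single arrays. With the laser it was 5.48% without control 1, 35.2% without control 3, 8.69% without control 4, and 5.8%, 6.72% and 11.6% without laser 2, laser 3 and laser 4. With the bur it was 12.3% without control 1, 16.5% without control 4, 15.8% without bur 1 and 15% without bur 3. The share of members ran from 0% to 3.95% with the laser and from 2.63% to 5.26% with the bur over the 12 fits that left out an array, and it lay below the share of all genes in 12 of 12 fits in each comparison.

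Within this scaling, the intervals were narrow enough to bound most of these differences. They do not cover a change of scaling. For Rpl41 they ran from -0.34 to 0.32 with the laser and from -0.36 to 0.29 with the bur. Quantile normalization gave that gene 0.51 and 0.60. The 95% interval lay within a 1.5-fold change either way for 69 of 76 members with the laser and 63 with the bur, and within 2-fold for 75 in each comparison. Members whose control and treated values did not overlap numbered 5 with the laser (6.58%), against 19% of all genes, and 4 with the bur (5.26%), against 25.3%. These were Rpl27, Rpl13, Rps10, Rpl17 and Rpl3 with the laser and Rpl27, Rplp2, Rpl13 and Rpl22 with the bur; Rps10, Rpl17, Rpl3, Rpl22 and Rpl13 are named after their values were seen.

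The number of calls depended on the scaling. After quantile normalization of the same signals, the median member difference was 0.16 with the laser and 0.21 with the bur. Calls then numbered 3 higher and 0 lower with the laser (3.95% of members higher, against 10.8% of all genes), and 13 higher and 0 lower with the bur (17.1%, against 12.1%). On the authors' deposited log2 values, which are named as quantile-normalized, 9 members were higher and 1 lower with the laser (11.8% higher, against 12.9% of all genes) and 17 were higher with the bur (22.4%, against 13.8%). The deposited comparisons hold the brightest probe for 33 of the 76 members, so this setting changed the probe as well as the scaling. Rpl41 itself moved from -0.01 to 0.51 with the laser and from -0.04 to 0.60 with the bur under quantile normalization. It was then called higher in both comparisons (limma adjusted p = 0.038 and 0.019). On the deposited log2 values, from the same probe, it read 0.63 and 0.73 and was also called (limma adjusted p = 0.011 and 0.0044). Under quantile normalization, the median over the 1062 other genes of the brightest 5% went only from 0.01 to 0.07 with the laser and from 0.04 to 0.06 with the bur.

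**Figure D2:**
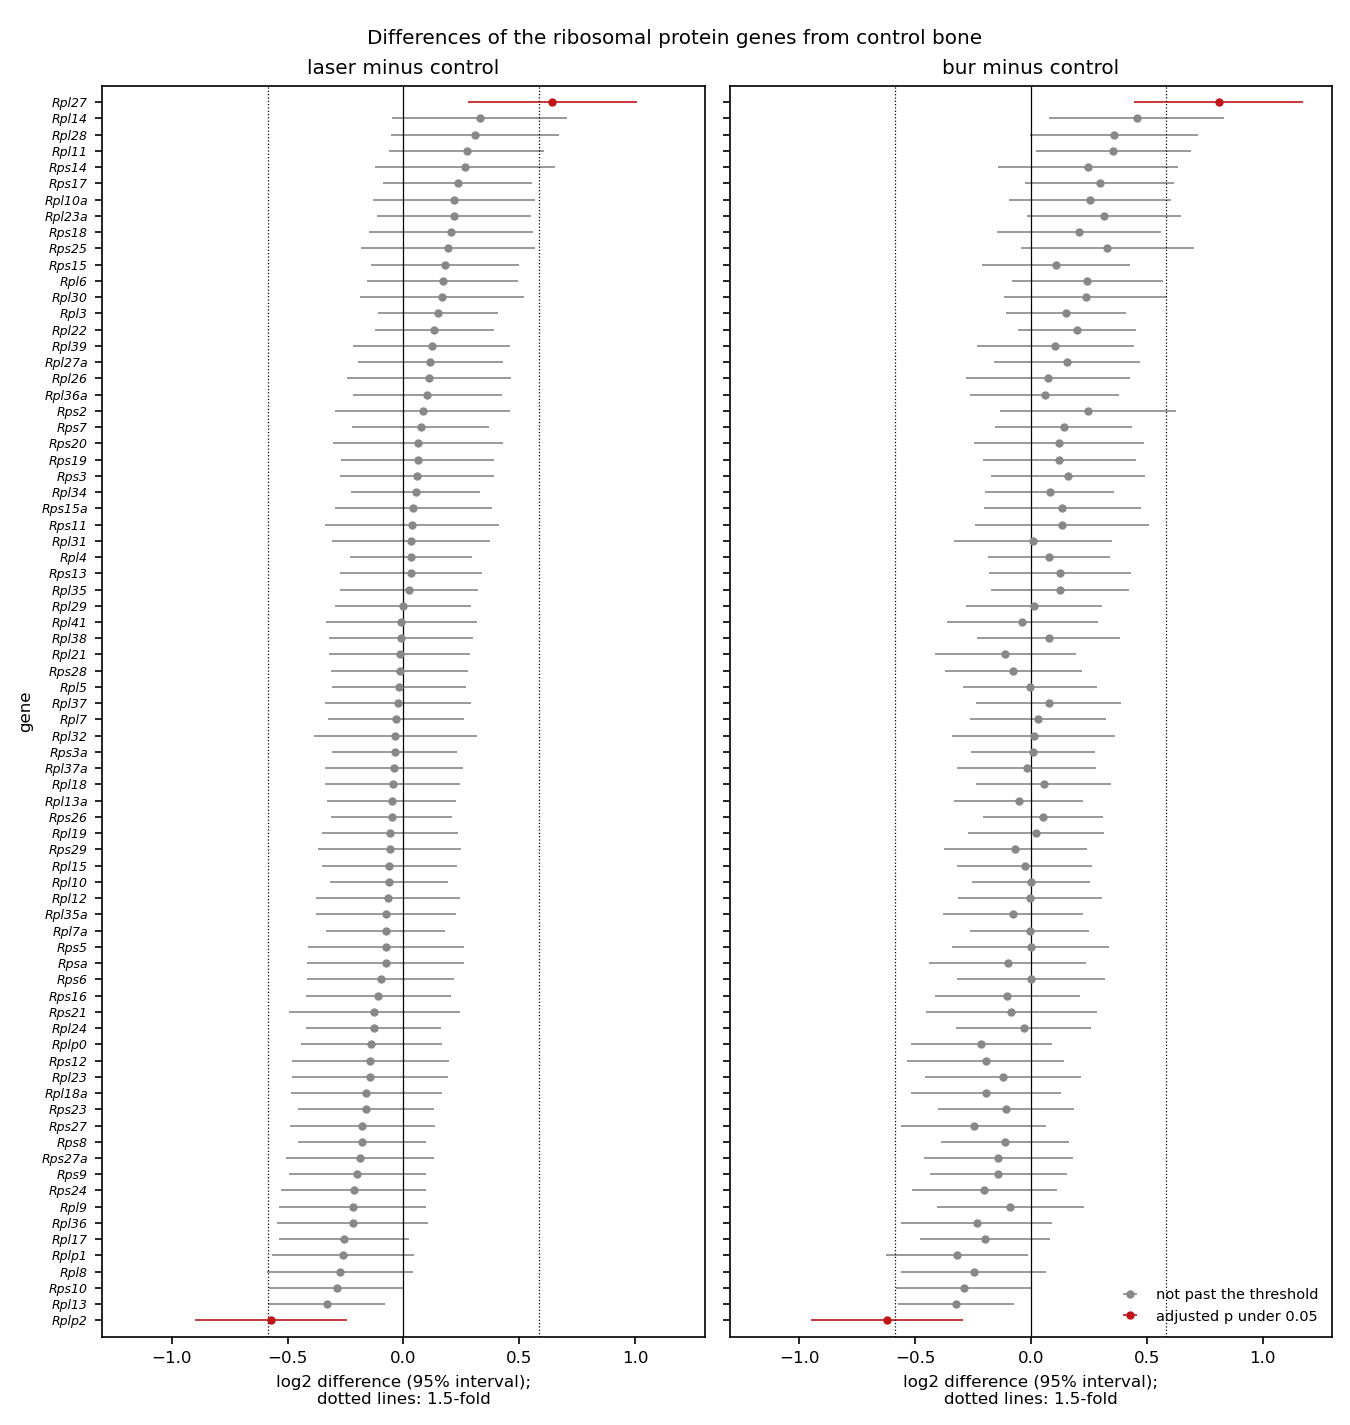
Log2 difference from control of each member with its 95% interval (limma, 4 arrays a group), for the laser (left) and the bur (right), in the order of the laser difference. Rpl27 (0.64 and 0.81) and Rplp2 (-0.57 and -0.62) are past the threshold in both panels, and most other intervals lie between the dotted lines of a 1.5-fold change.

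Between laser and bur no member passed the threshold, and neither did any of the 22718 genes (0%); at an unadjusted p under 0.05 there were 0 members and 574 genes. All 76 intervals of laser minus bur lay within a 1.5-fold change, and in 0 members did the values not overlap, against 2.15% of all genes. The differences ran from -0.17 to 0.10 with a median of -0.05, and 55 of 76 were below 0. Both comparisons with control share the same 4 control arrays, so the likeness of their member values is no independent result.

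Rpl27, which encodes a large subunit protein, rose after both treatments. Its control values were 1.19, 1.37, 1.70 and 1.59, its bur values 2.47, 2.01, 2.10 and 2.51, and its laser values 1.88, 2.16, 2.30 and 2.08. Every treated array lay above every control array. The difference was 0.64 ± 0.17 (SE; limma adjusted p = 0.0244) with the laser, a 1.56-fold rise, and 0.81 ± 0.17 (adjusted p = 0.0088) with the bur, a 1.75-fold rise. The rise was read by a single probe of 60 bases, printed on 10 spots, that lies at base 164 of the transcript and that the files place at chr10:90470861-90470920 of rat build rn4 (plus strand). The probe is shown because the whole reading rests on it.
Rpl27 probe: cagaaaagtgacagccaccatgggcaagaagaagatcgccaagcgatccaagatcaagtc

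Rplp2, one of the acidic P proteins of the stalk, fell after both treatments. It read 7.24, 7.20, 6.74 and 7.16 in control, 6.66, 6.48, 6.36 and 6.36 with the bur, and 6.75, 6.39, 6.55 and 6.36 with the laser. Control 3 lay apart from the other controls and below the highest laser array, so the laser and control values overlapped and the bur and control values did not. The difference was -0.57 ± 0.15 (SE; limma adjusted p = 0.0248) with the laser, which is 0.67 of the control signal, and -0.62 ± 0.15 (adjusted p = 0.0149) with the bur, or 0.65 of it.

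The fall of Rplp2 was read by 1 of its 2 probes. The called probe, on 1 spot, lies at base 361 of the transcript (chr1:201637786-201637845, rn4, plus strand) and covers the AATAAA polyadenylation signal, printed in capitals in its last 30 bases. The other probe, on 10 spots, lies at base 162 and is placed at chr1:201635945-201637527, a genome span longer than the probe. It read -0.14 with the laser (adjusted p = 0.59) and -0.16 with the bur (adjusted p = 0.52) when it stood for the gene.
Rplp2 3′ probe, bases 31 to 60: agttcccctgccAATAAAgcctttttatgt
Rplp2 5′ probe: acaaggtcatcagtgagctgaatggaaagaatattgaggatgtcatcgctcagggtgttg

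Both laser calls were close to the threshold. Rpl27 was no longer called with the laser without control 1 (adjusted p = 0.073), control 2 (0.051), laser 2 (0.065) or laser 3 (0.070), and Rplp2 without control 1 (0.073), control 2 (0.054), control 4 (0.058), laser 2 (0.069), laser 3 (0.059) or laser 4 (0.060). Both bur calls held with each of the 12 arrays left out in turn. Rplp2 also lost its call under quantile normalization, with -0.35 for the laser (adjusted p = 0.10) and -0.40 for the bur (adjusted p = 0.065).

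The other stalk genes were lower than control in the mean and did not pass in the main fit. Rplp1 read 7.82, 7.85, 7.59 and 7.63 in control, 7.35, 7.27, 7.35 and 7.63 with the bur, and 7.53, 7.15, 7.59 and 7.57 with the laser, a difference of -0.26 ± 0.14 (adjusted p = 0.19) and, with the bur, -0.32 ± 0.14 (adjusted p = 0.11). Rplp0 read 7.85, 7.66, 7.62 and 7.87 in control, 7.60, 7.36, 7.40 and 7.78 with the bur, and 7.62, 7.37, 7.78 and 7.66 with the laser, with differences of -0.14 ± 0.14 and -0.21 ± 0.14 (adjusted p = 0.48 and 0.27). The groups overlapped for both genes. Quantile normalization turned both genes to the other side: Rplp1 to 0.26 and 0.35, and Rplp0 to 0.38 and 0.47, of which the bur value of Rplp0 was called (adjusted p = 0.021). On the deposited log2 values Rplp0 was called higher with the laser (0.38, limma adjusted p = 0.040) and the bur (0.54, adjusted p = 0.0091). The bur difference of Rplp1 ran from -0.42 to 0.35 over the 13 other settings. It was called under 2 of them (lowest limma adjusted p = 0.021), neither of them quantile normalization or the deposited values.

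Rpsa, the small subunit protein that also serves as a laminin receptor, read 6.15, 6.22, 5.99 and 6.09 in control, 5.92, 5.79, 5.99 and 6.35 with the bur, and 6.10, 5.70, 6.21 and 6.14 with the laser. Its differences were -0.08 ± 0.16 with the laser and -0.10 ± 0.16 with the bur (limma adjusted p = 0.74 and 0.66), and the groups overlapped. The sign depended on the processing and on the probe. On the brightest probe, quantile normalization gave 0.11 and 0.07. The mean of its probes gave 0.16 and 0.21. Its probe nearest the 5′ end read 0.39 (limma adjusted p = 0.094) and, with the bur, 0.53 (adjusted p = 0.032, called). The authors' deposited comparisons hold for Rpsa that 5′ probe alone. Its deposited log2 values gave 0.32 (limma adjusted p = 0.073) and, with the bur, 0.40, which was called (adjusted p = 0.031).

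Rpl14, a large subunit protein, had the second largest positive difference: 5.48, 5.75, 6.11 and 5.83 in control, 6.41, 6.03, 6.03 and 6.52 with the bur, and 5.91, 6.07, 6.35 and 6.14 with the laser. The difference was 0.33 ± 0.17 (adjusted p = 0.18) and, with the bur, 0.46 ± 0.17 (adjusted p = 0.070). The bur difference was called under 8 of 13 other settings, among them the array median as centre (0.51, adjusted p = 0.036), quantile normalization (0.57, adjusted p = 0.035) and the authors' deposited log2 values (0.76, adjusted p = 0.0050), and also without control 3. The laser difference was called under 2 of 13, the authors' deposited log2 values (0.62, adjusted p = 0.014) and the probe nearest the 5′ end (0.63, adjusted p = 0.039). Both rest on a probe other than the brightest, as does the deposited bur value. The brightest probe of Rpl14 lies at base 656 of the transcript. Its 2 other probes, at bases 178 and 403, read 0.63 and 0.62 with the laser (adjusted p = 0.042 and 0.041 over all probes) and 0.85 and 0.80 with the bur (0.014 and 0.015).

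Rpl13, chosen after its values were seen, came nearest to the threshold among members that missed it, at -0.33 ± 0.12 with the laser and -0.32 ± 0.12 with the bur (limma adjusted p = 0.058 and 0.057). Its control arrays, at 6.66, 6.57, 6.38 and 6.59, all lay above its bur arrays (6.33, 6.20, 6.12 and 6.26) and laser arrays (6.24, 6.07, 6.35 and 6.22).

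Of the dim members, Rpl28 read 2.06, 2.01, 2.22 and 2.61 in control and 2.37 to 2.79 over the 8 treated arrays, which overlapped with control, and its differences were 0.31 and 0.36 (adjusted p = 0.19 and 0.12). Rps2, a small subunit protein, differed by 0.08 and 0.25 (adjusted p = 0.75 and 0.30). Rps14 had the largest spread within groups, a pooled SD of 0.24, followed by Rps2 and Rpl14 at 0.23. Rps14 ran from 5.07 to 5.33 in control, from 5.18 to 5.71 with the bur and from 5.22 to 5.86 with the laser.

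**Figure D3:**
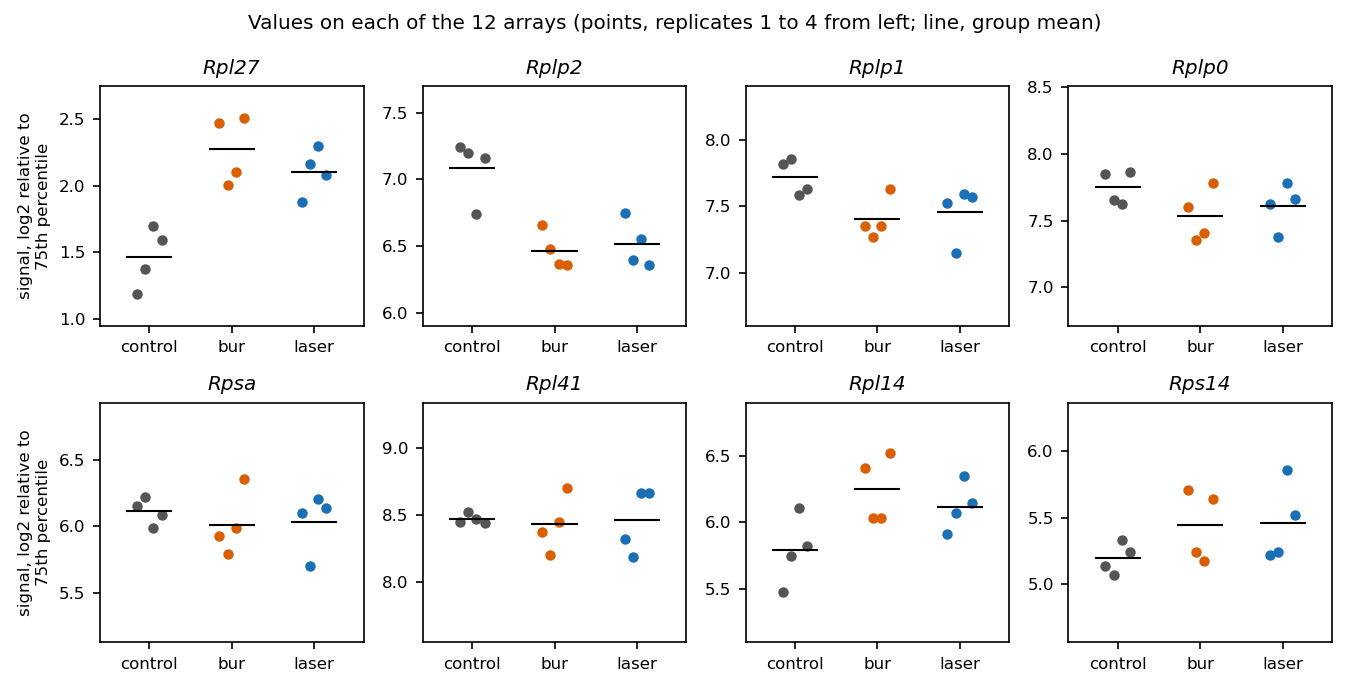
Signal of 8 members on each array (log2 relative to the array's 75th percentile; points, replicates 1 to 4 of a group from left to right; line, group mean); all panels span the same height of 1.8. The treated arrays of Rpl27 all lie above control and the bur arrays of Rplp2 all below it; control 3 of Rplp2 lies below the highest laser array, and the other 6 genes overlap between groups.

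The members varied together from array to array within a group. On bur 4, 75 of the 76 stood above their own group mean, with a median deviation of 0.24, and on laser 3 all 76 did (0.13). On bur 2 and bur 3 only 2 members each stood above it, with median deviations of -0.21 and -0.12, and on laser 2 only 3, at -0.18. The control arrays stayed between -0.08 and 0.05. The median within-group SD of a member was 0.18, against 0.32 over all genes, and it fell to 0.098 once each array's median member deviation was subtracted. The median SE of a difference was 0.14 for members, 0.16 for the brightest 5% of genes and 0.22 over all genes. The median SD among the 10 spots of a member probe on an array was 0.055. The shifts shared on bur 4, bur 2 and laser 2 were larger than either median member difference from control.

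**Figure D4:**
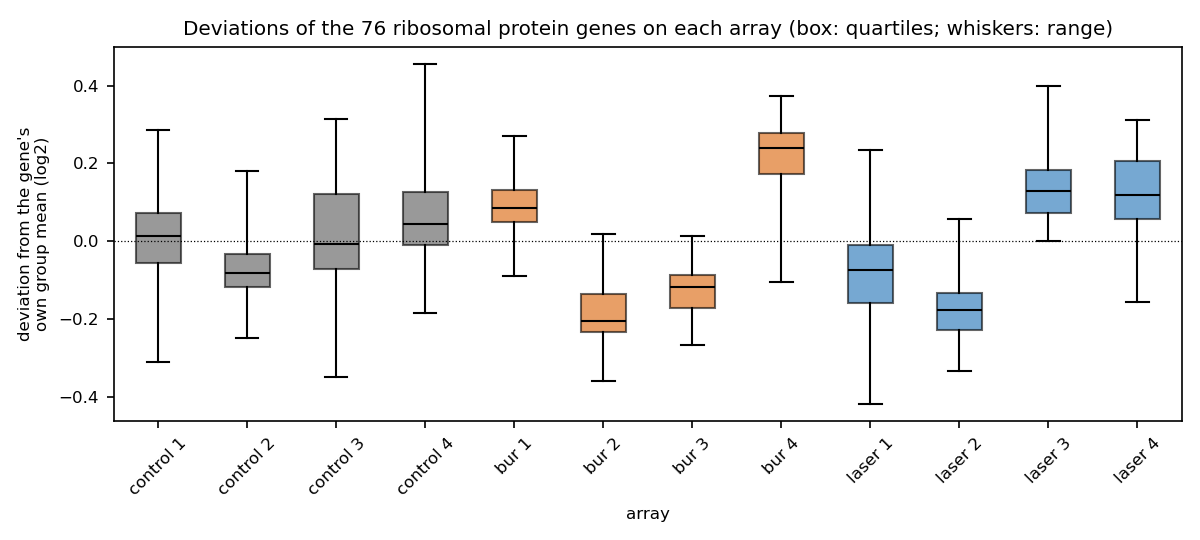
Deviation of the 76 members from their own group means on each array (log2; box, quartiles; line, median; whiskers, range). The whole family sits high on bur 4 (median 0.24) and low on bur 2 (-0.21) and laser 2 (-0.18), while the control medians stay between -0.08 and 0.05.

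How a member differed from control moved with where its probe lay and with how bright that probe was. The 76 genes had 197 probes, of which 196 were kept, and 58 genes had more than 1. Over all kept probes, 4 member probes were higher and 3 lower with the laser (3.57%, against 20.3% of all 29775 probes), and 8 higher and 3 lower with the bur (5.61%, against 23.9%). No gene had probes called in opposite directions. For 38 transcripts with a pair of probes at least 100 bases apart, the change read by the 3′ probe was lower than that read by the 5′ probe in 32 with the laser (median -0.17) and in 31 with the bur (median -0.22). The median change was 0.14 and 0.25 at 5′ probes and -0.04 and -0.0024 at 3′ probes. The 3′ probe was also the brighter one in 34 of the 38 pairs. Across 187 member probes with a RefSeq transcript position, Spearman's rho between position and change was -0.45 with the laser and -0.39 with the bur. Across all 196 kept member probes it was -0.41 and -0.44 between signal and change, and position and signal themselves had a rho of 0.28. Probes of one gene share a transcript and all share the 12 arrays, so these values are a description. These comparisons were chosen after the data were seen.

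In most transcripts outside the family, too, the 3′ probe read the lower change. At the same gap of at least 100 bases this held for 65.5% of 2861 other transcripts with the laser and 65.2% with the bur, against 84.2% and 81.6% of the 38 member pairs. At a gap of at least 300 bases it held for 12 of 12 member pairs in each comparison (median -0.32 and -0.34). Among 2484 other transcripts at that gap it held for 65.4% and 65.0% (median -0.16 and -0.18). The differences between these shares were not tested. Over 2484 other transcripts with probes at least 300 bases apart, the median signal of 3′ over 5′ probes was 2.05 ± 0.13 (SD, n = 4) in control, 1.84 ± 0.05 with the bur and 1.86 ± 0.04 with the laser on the log2 scale (2-sided exact permutation p = 0.029 for each against control, the smallest that 4 against 4 arrays allow, and 0.74 for laser against bur). The called probe of Rplp2 is the 3′ probe of its pair. Rpl27 has a single probe, at base 164 of the transcript, and so forms no pair. The parts of probe position and probe signal in the member results were not tested. With the probe nearest the 3′ end in place of the brightest, calls numbered 1 higher and 2 lower in each comparison with control; with the probe nearest the 5′ end they numbered 2 higher and 0 lower with the laser and 5 higher and 0 lower with the bur.

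**Figure D5:**
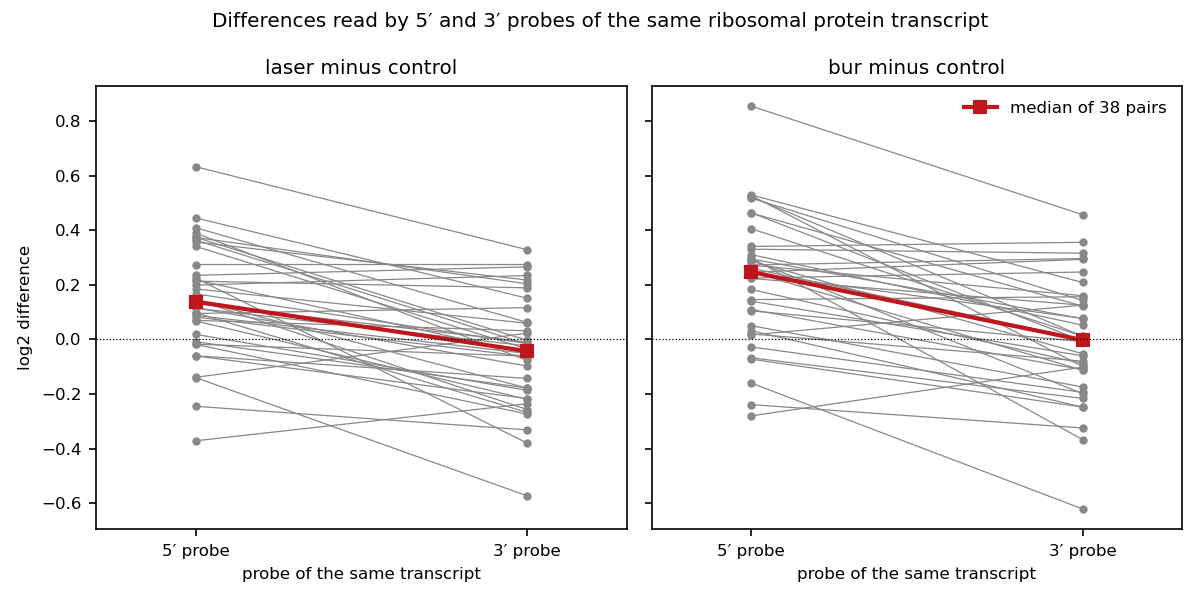
Log2 difference from control read by the 5′ and the 3′ probe of the same transcript, for 38 members with probes at least 100 bases apart (grey lines, 1 pair each; red, median). Most lines slope down, in 32 of 38 pairs with the laser and 31 of 38 with the bur.

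The control arrays shared 1 slide, and the treated arrays shared a different slide with bur and laser in separate parts of it. Treatment and slide thus cannot be told apart for laser or bur against control. Treatment and part of the slide cannot be told apart for laser against bur. RefSeq also lists 884 pseudogene entries named for members, at least 1 for each of the 76. The median was 11, with the most for Rps2 (36), Rps27a (29) and Rpl9 (27). They were counted by name, and no probe was aligned to them. Where such a copy is transcribed and matches a probe, the probe could read both.

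Among the other genes of translation, in lists fixed with earlier results of these data known, the elongation factors gave no call. In either comparison 0 of 9 passed, against 22.3% and 26.2% of all genes, with median differences of -0.006 and -0.0035. The smallest p was that of Eef1a1, which delivers aminoacyl-tRNA to the ribosome, at 0.21 with the laser (adjusted p = 0.28) and 0.32 with the bur (0.10).

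Of 29 initiation factor and poly(A) binding genes, 2 rose and 2 fell with the laser and 2 rose and 1 fell with the bur (13.8% and 10.3% called, against 22.3% and 26.2% of all genes). Eif4a1, the helicase that opens the 5′ end of mRNAs, rose from 0.39, 0.81, 0.91 and 0.75 in control to 1.34, 1.61, 1.60 and 1.39 with the laser and 1.36, 1.47, 1.45 and 1.58 with the bur, by 0.77 ± 0.14 (adjusted p = 0.0080) and 0.75 ± 0.14 (adjusted p = 0.0061). Every treated array lay above every control array. As a mean of its probes it read 0.42 and 0.44 and was not called (adjusted p = 0.064 and 0.051). Eif4g1, the scaffold that binds Eif4a1, rose by 0.46 and 0.45 (limma adjusted p = 0.024 and 0.021). The laser call of Eif4g1 held in 7 of the 12 fits that left out an array and its bur call in 10. Eif1, which guards start codon choice, differed by -0.47 in both (limma adjusted p = 0.041 and 0.037). Its laser call held in 1 of the 12 fits that left out an array, the one without control 3, and under 7 of 13 other settings, and its bur call in 5 of 12 and under 8 of 13.

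Of 14 growth signalling genes, 1 was called in each comparison (7.14%, against 22.3% and 26.2% of all genes). It was the repressor of cap-dependent initiation Eif4ebp2, which fell. Its control values were -0.65, -0.65, -0.97 and -0.34. Its laser values ran from -1.70 to -1.52 and its bur values from -1.65 to -1.48. The differences were -0.99 ± 0.14 and -0.90 ± 0.14 (limma adjusted p = 0.0030 and 0.0029), and the groups did not overlap.

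Of 42 ribosome assembly and nucleolar genes, 3 rose with the laser and 7 with the bur (7.14% and 16.7%), and 0 fell in either comparison. Of all genes tested, 9.26% and 9.99% were higher. Nmd3, the export adaptor of the large subunit, rose by 0.92 ± 0.18 and 0.86 ± 0.18 (limma adjusted p = 0.012 and 0.010). Ltv1, a small subunit assembly factor, differed by 0.34 in both (limma adjusted p = 0.042 and 0.040), and Wdr75, a nucleolar processing factor, by 0.68 and 0.65 (adjusted p = 0.040 and 0.042). Of the 12 fits that left out an array, Ltv1 was called with the laser in 1 and with the bur in 3, and Wdr75 in 1 for each. In the fit blocked on replicate number neither was called (adjusted p = 0.064 and 0.062 for Ltv1, 0.052 and 0.056 for Wdr75). Of 13 genes of RNA polymerase I transcription, 15.4% were called in each comparison, against 22.3% and 26.2% of all genes. The polymerase subunit gene Polr1a rose by 0.96 and 0.91, and the rDNA transcription factor Ubtf fell by 0.78 and 0.99. The laser call of Polr1a held in 10 of the 12 fits that left out an array and that of Ubtf in 6, and both bur calls in all 12. With normexp background correction Polr1a read 0.33 and 0.19 and was not called (limma adjusted p = 0.070 and 0.21).

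Mitochondrial ribosomal proteins, which form the separate ribosome of that organelle, counted 3 higher and 2 lower of 74 with the laser and 9 higher and 2 lower with the bur (6.76% and 14.9% called, against 22.3% and 26.2% of all genes). The bright member Mrpl10 fell by 0.55 and 0.45, and the dim member Mrpl42 rose by 0.90 and 1.02. With an array left out, both calls of Mrpl10 held in 12 of 12 fits, and those of Mrpl42 in 5 with the laser and 10 with the bur. Of 12 paralogues and fusion genes that the naming rule leaves out, 2 were higher with the laser (16.7%, against 9.26% of all genes). With the bur 1 was higher (8.33%, against 9.99%). Rps27l, a p53-induced paralogue of Rps27, was among them and rose by 0.95 ± 0.28 and 1.16 ± 0.28 (limma adjusted p = 0.036 and 0.015). Its control values were 1.70, 2.13, 2.95 and 1.96, against 2.66 to 3.35 with the laser and 2.84 to 3.65 with the bur, so that control 3 overlapped with both. Its laser call held in 6 of the 12 fits that left out an array and its bur call in 12. Rps27 itself was not called in either comparison.

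The small differences among ribosomal protein genes stood beside larger ones in several lists of genes that mark the cells of the tissue. Over all genes, 13% were lower with the laser and 16.2% with the bur, and 9.26% and 9.99% higher. Erythroid genes were lower in 14 of 14 with the laser and 13 of 14 with the bur, with array means of the list from 0.45 to 2.72 in control, -1.13 to 0.56 with the laser and -1.73 to 0.49 with the bur. Neutrophil genes were lower in 7 and 6 of 13 (53.8% and 46.2%), B cell genes in 4 and 4 of 12 (33.3% in each), adipocyte genes in 5 and 5 of 7, T cell genes in 4 and 4 of 9 with 1 higher in each, and genes of dividing cells in 7 and 8 of 14. Macrophage genes were higher in 4 and 6 of 10, and osteoblast and osteocyte genes in 7 and 1 of 13 (53.8% and 7.69%). Skeletal muscle genes were called in 0 of 8. The 13 bone genes averaged 1.08 to 1.52 on the control arrays on the log2 scale, 1.37 to 1.92 with the bur and 1.75 to 2.33 with the laser. The mean of the dividing-cell list ran from 0.08 to 1.52 in control, from -0.30 to 0.15 with the laser and from -0.39 to 0.18 with the bur. In tissue RNA, fewer cells of a type and less RNA per cell cannot be told apart, and the part of these cell types in the member results was not tested.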

How the data were processed

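The authors deposited the scanner output of each array as spot intensity on a linear scale, made with Agilent Feature Extraction 11.0.1.1 per the submitters' processing notes; probe positions are on build rn4 per the file headers. They also deposited a log2 table named as quantile-normalized and comparison tables of log2 changes and p-values. The steps between scanner output and these tables are not given in the sources used here, and whether their values were centred by gene is not stated.

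From the deposited processed intensity, log2 values were taken and the 75th percentile of each array's non-control spots was subtracted. Outlier spots were left out and the spots of a probe averaged. Probes well above background on at least 4 of 12 arrays were kept (29775 of 45598), and the brightest stood for its gene name. limma 3.58.1 in R 4.3.3 (lmFit, eBayes, 2-sided) was fitted on all 12 arrays and 22718 genes, with Benjamini-Hochberg adjustment over all of them and a threshold of 0.05. Members, lists, tests and alternatives were chosen with earlier results of these data known. Members with values in the text are those past the threshold (at most 10 in a direction), the 3 brightest, 3 dimmest and 3 most variable, the stalk genes and Rpsa, and up to 4 called genes of a list, or that with the smallest p. Exceptions are named as chosen after their values were seen.

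The fit was tested on simulated data for laser against control with the spread of the 22718 genes. Groups of 50 genes were changed by 0.5, 1, 1.5 and 2 on the log2 scale. Of these, 1, 22, 31 and 40 were called in the right direction, with 10 false calls. Only 200 genes were changed, and the noise was independent between genes. In the data 22.3% of genes were called, which makes the adjusted threshold less strict. Members also varied less within groups (median SD 0.18, against 0.32 over all genes). These counts therefore do not give the power of the member tests.

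Replicate numbers equal the position of an array within its part of the slide. The main fit did not pair arrays by this number (9 residual degrees of freedom). Replicate number entered only the replicate block listed below. Correlations of same-numbered arrays were 0.34, 0.18, 0.22 and 0.13 for laser and control. For laser and bur they were 0.25, 0.24, 0.16 and 0.34, and for bur and control 0.28, -0.05, 0.28 and 0.08. Arrays with different numbers ran from -0.32 to 0.12 for laser and control, and from -0.28 to 0.14 for laser and bur. In both of these, every same-numbered value lay above all others. For bur and control the different-numbered values ran from -0.43 to 0.32, so the ranges overlapped. Alternatives were normexp background correction (offset 50), quantile normalization, other array centres, the deposited log2 values, other detection filters, the mean of probes, 2-group fits, a replicate block, array weights and leaving out each array.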

Additional observations from a re-analysis of the deposited data

Results flagged for a closer look

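In 4 of 93 groups of 4 arrays tested, 1 array lay far from the other 3 by Dixon's test at the 95% level; chance flags about 1 group in 20. The first pair belongs to the stalk genes. Rplp2 read 6.74 on control 3, against 7.16 to 7.24 on the other controls. Rplp1 read 7.15 on laser 2, against 7.53 to 7.59 on the other laser arrays, and on the same array the assembly factor Wdr75 read -2.58, above the -2.81 to -2.78 of the others. The mitochondrial ribosomal protein gene Mrps18b read -4.17 on bur 3, against -3.68 to -3.60 on the other bur arrays.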

How the results depend on the processing

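Main counts of called members were 1 higher and 1 lower in each comparison with control and 0 between laser and bur, which stayed 0 under all 13 other settings and all 12 fits that left out an array. Normexp gave 1 higher and 2 lower with the laser and 3 and 3 with the bur. Quantile normalization gave 3 and 0 with the laser (median member difference 0.16) and 13 and 0 with the bur (0.21). The authors' deposited log2 values gave 9 and 1 (0.14) and 17 and 0 (0.21), with the brightest probe present for 33 of 76 members. Centring on the array median, or on probes detected on all arrays, gave 2 higher with the bur. The filter of 12 detected arrays gave 2 lower in both. The mean of probes gave 0 lower with the laser and 2 higher and 0 lower with the bur. Array weights gave 2 and 2 with the laser and 5 and 4 with the bur. Of the alternatives added after seeing the data, 3′ probes gave 2 lower in both, and 5′ probes 2 and 0 with the laser and 5 and 0 with the bur. Fits of the 2 groups alone gave 0 and 0 with the laser, from fewer arrays. Why the counts moved between settings was not tested. With an array left out, counts ran from 0 to 1 higher and 0 to 2 lower with the laser, and from 1 to 2 higher and 1 to 2 lower with the bur; without control 3 the bur gave 2 and 2 and the laser 2 lower, and without control 4 the bur gave 2 higher.

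The replicate block left the member counts at 1 higher and 1 lower in both comparisons with control, with adjusted p of 0.028 and 0.012 for Rpl27 and 0.020 and 0.013 for Rplp2, and lost the calls of Ltv1 and Wdr75 given above. Normexp moved the median of all genes by most, to -0.24 for the bur. Over all genes, the 2-group fits called 651 higher and 1107 lower with the laser.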

Other observations

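The array also carries 185 measured gene names described as ribosomal protein-like loci, a group chosen after the data were seen. With the laser 2 were higher and 23 lower (13.5%, against 22.3% of all genes), and with the bur 9 were higher and 24 lower (17.8%, against 26.2%). Their median difference was near 0 with the laser (0.000094) and 0.04 with the bur, and 0 of them were called between laser and bur, where limma called 0 of all genes.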
